A study of Mus musculus with 4 samples.

Results

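The laminin chains Lama2, Lama4, Lama5, Lamb1, Lamb2 and Lamc1, the nidogens Nid1 and Nid2, perlecan (Hspg2) and agrin (Agrn) are non-collagen proteins of basement membranes. The 10 genes were chosen by name, and all 10 were found among the 33641 gene symbols listed in every library. RNA was sequenced from primary fibroblasts isolated from the hearts of wild-type C57BL/6J mice aged 12 weeks. Of the 4 libraries, 2 came from cells given 10 ng/ml TGFbeta and 2 from cells given vehicle control. Both groups were grown to 80% confluency, received 4-thiouridine 20 and 4 h before crosslinking, and were exposed to light of 368 nm at 200000 uJ per square centimetre. The design text describes RNA bound to HuR, an RNA-binding protein, after crosslinking and immunoprecipitation, whereas the sample labels describe total RNA, of which 1 ug entered each library. The values below are therefore levels in these libraries, and binding to HuR cannot be told apart from abundance. Nothing in the labels ties the replicates to separate cultures or animals, so p-values measure only the spread between these samples.

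A laminin is a cross-shaped trimer of 1 alpha, 1 beta and 1 gamma chain that polymerises on the cell surface and starts the assembly of a basement membrane. Nidogens link the laminin network to collagen IV, and perlecan and agrin are heparan sulfate proteoglycans that add charge, growth factor binding and anchorage to dystroglycan. In the heart these sheets surround cardiomyocytes, smooth muscle cells and capillaries. Fibroblasts exposed to TGFbeta become myofibroblasts, contractile cells that secrete fibrillar matrix.

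Between 20945 and 21671 genes lay above 0 per library, and read depth is unknown because TPM has a fixed total. Defining fibroblast genes were present in every library. Col1a1 had 6221 and 4272 TPM with TGFbeta, against 3148 and 2392 TPM with vehicle (log2 change 0.91, limma adjusted p = 0.0958). Col3a1 had 6532 and 6979 TPM with TGFbeta, against 11207 and 9018 TPM with vehicle (log2 change -0.57, limma adjusted p = 0.172). Of 10 fibroblast markers limma called 0 higher and 2 lower, against 1.54% and 4.38% of all tested genes. The called markers were Pdgfra at -1.42 (limma adjusted p = 0.0106) and Tcf21 at -1.11 (limma adjusted p = 0.0148). Both TGFbeta libraries lay above both vehicle libraries for 2 of the 10 and below both for 6, against 15.5% and 39.8% of tested genes.

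With TGFbeta, Nid2 and Lama4 were lower, Nid1 and Hspg2 had overlapping libraries, and no member passed the test upwards. Of the 10 members 0 were called higher and 2 lower by limma at an adjusted p under 0.05, while at an unadjusted p under 0.05 there were 2 higher and 4 lower. That looser threshold was passed by 24.5% of all tested genes, 5.98% higher and 18.5% lower. Over all 15815 tested genes limma called 1.54% higher and 4.38% lower, or 244 and 692 genes, a split that became 421 and 401 after median scaling. Both TGFbeta libraries lay above both vehicle libraries for 2 members, Lama2 and Lamb1, against 15.5% of tested genes. They lay below both for 5 members, Lama4, Lamb2, Lamc1, Nid2 and Agrn, against 39.8% of tested genes. The median log2 change of the members was -0.38, and that of all tested genes was -0.13. All 10 members passed the filter of a mean level of at least 1 TPM (a level per transcript length, scaled to a fixed total per library). Together they took 0.298% and 0.26% of all TPM in the TGFbeta libraries, against 0.331% and 0.329% in the vehicle libraries. With 2 libraries a group, exact permutation of the labels for a single gene allows 6 arrangements and no two-sided p under 0.333, so it was not run.

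**Figure D1:**
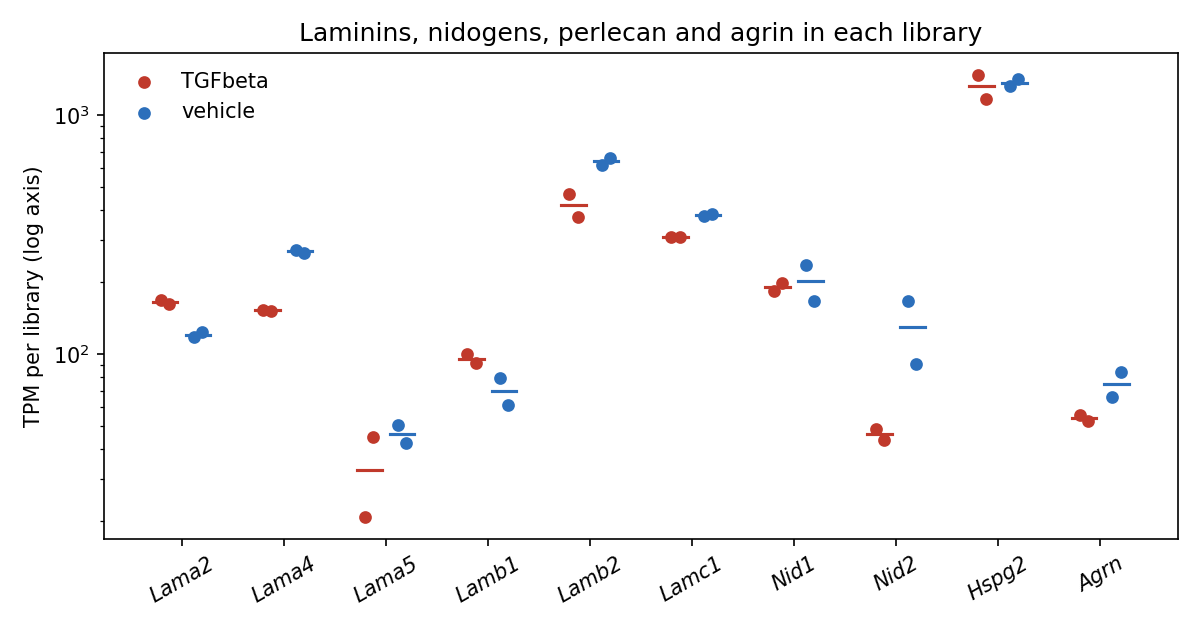
The plot shows TPM (log axis) of each gene in each library, with TGFbeta in red and vehicle in blue; points are libraries and bars are means of 2. Hspg2 lies between 1172 and 1472 TPM, above every other gene, and Nid2 lies at 48.6 and 43.3 TPM with TGFbeta, below both vehicle libraries.

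Among the alpha chains, which carry the domains that bind receptors, Lama4 fell. Lama4 encodes the alpha4 chain of vascular and mesenchymal basement membranes, which lacks the short arm that other alpha chains use to polymerise. It had 153 and 151 TPM in the TGFbeta libraries, against 273 and 264 TPM in the vehicle libraries. The replicates of each group nearly coincided, and the groups lay far apart. The mean of Lama4 was 152 ± 1.46 TPM with TGFbeta and 269 ± 6.22 TPM with vehicle (SD, n = 2 each), 1.77-fold lower with TGFbeta. Its log2 change was -0.82 (SE 0.12, limma adjusted p = 0.0245). The call was lost when any 1 library was left out (limma adjusted p from 0.0794 to 0.182), although the change stayed between -0.84 and -0.79. With no minimum level the adjusted p of Lama4 in limma was 0.0784, and without an intensity trend it was 0.0516, both too high for a call.

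Lama2 encodes the alpha2 chain of muscle basement membranes, and its loss causes a congenital muscular dystrophy. Lama2 had 167 and 162 TPM with TGFbeta, against 118 and 123 TPM with vehicle, so that both TGFbeta libraries were above both vehicle libraries. Its log2 change was 0.45 (SE 0.12), which missed the threshold (limma adjusted p = 0.0935), as it did under every alternative run. Lama5 encodes the alpha5 chain, which is widespread in adult epithelial and vascular basement membranes. Lama5 had 20.7 and 44.8 TPM with TGFbeta, against 50.4 and 42.3 TPM with vehicle, and only the first TGFbeta library stood apart. Its log2 change of -0.58 (SE 0.34, limma adjusted p = 0.357) was -0.04 without that library.

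Within a library, the order of the alpha chains differed between the groups. Lama4 stood at 91.3 and 93.1 TPM per 100 TPM of Lama2 in the TGFbeta libraries, against 232 and 215 in the vehicle libraries. Lama2 was thus the most abundant of the 3 alpha chains in both TGFbeta libraries and Lama4 in both vehicle libraries. Lama4 made up 44.8% and 42.2% of the TPM of these 3 chains with TGFbeta, against 61.9% and 61.5% with vehicle. Lama2 made up 49.1% and 45.3% with TGFbeta, against 26.7% and 28.6% with vehicle. The log2 ratio of Lama4 over Lama2 averaged -0.12 ± 0.02 with TGFbeta and 1.16 ± 0.08 with vehicle (SD, n = 2 each), a difference of -1.27. The share of Lama5 overlapped between the groups, with 6.07% and 12.5% under TGFbeta and 11.4% and 9.84% under vehicle. Such ratios do not move when a whole library is rescaled.

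The beta chains, of which each laminin trimer holds 1, lay on opposite sides of 0. Lamb1 encodes the beta1 chain, the early and widespread form, and had 99.6 and 91.4 TPM with TGFbeta, against 79.0 and 61.1 TPM with vehicle. The TGFbeta libraries of Lamb1 were both higher, but its log2 change was 0.45 (SE 0.17), short of the threshold (limma adjusted p = 0.166). Without the first vehicle library the Lamb1 value was 0.63, and without the second it was 0.27. Lamb2 encodes the beta2 chain of neuromuscular synapses, the kidney filter and vessels. It had 469 and 374 TPM with TGFbeta, against 621 and 662 TPM with vehicle, without overlap. Its log2 change was -0.61 (SE 0.16) and missed the threshold (limma adjusted p = 0.0842), which it reached in a fit of protein-coding genes that also left out genes with 4 values identical to another gene's (limma adjusted p = 0.0408). Lamb1 stood at 21.3 and 24.4 TPM per 100 TPM of Lamb2 with TGFbeta, against 12.7 and 9.24 with vehicle. The difference in the log2 ratio of Lamb1 over Lamb2 was 1.07, beyond the pooled SD between replicates of 0.25. Lamb2 was the more abundant beta chain in all 4 libraries.

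The promoters of these beta chains are shown because both genes have an entry and their levels lay apart in opposite directions. RefSeq (build GRCm38.p6) gave promoter windows for 7 members, from 250 bases before to 50 after the start used there. Lama4, Lamc1 and Nid2 have no entry. For Lamb1 and Lamb2 that start differs from the GENCODE gene start given below. Capitals mark CAGAC or its reverse complement GTCTG, the core of the CAGA box bound by Smad3, and GGGCGG or CCGCCC, the GC box bound by Sp1; no marked stretches overlap. The Lamb1 window lies at chr12:31265043-31265342 and the Lamb2 window at chr9:108479612-108479911, both on the plus strand.
Lamb1: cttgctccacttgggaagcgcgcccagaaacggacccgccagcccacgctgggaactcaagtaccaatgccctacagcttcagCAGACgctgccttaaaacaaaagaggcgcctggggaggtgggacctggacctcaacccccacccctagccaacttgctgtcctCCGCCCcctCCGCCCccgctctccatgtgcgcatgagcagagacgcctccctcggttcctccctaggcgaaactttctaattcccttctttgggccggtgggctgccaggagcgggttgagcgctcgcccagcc
Lamb2: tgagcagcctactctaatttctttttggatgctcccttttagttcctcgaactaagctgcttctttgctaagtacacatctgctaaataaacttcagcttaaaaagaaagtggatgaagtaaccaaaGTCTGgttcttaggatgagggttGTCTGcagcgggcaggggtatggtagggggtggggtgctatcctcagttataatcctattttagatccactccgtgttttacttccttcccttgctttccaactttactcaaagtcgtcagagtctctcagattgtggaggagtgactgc
The Lamb1 window held 1 CAGAC and 2 GGGCGG matches at 63.7% GC, and the Lamb2 window held 2 CAGAC and 0 GGGCGG matches at 44.0% GC. Of 32851 promoter windows of the same length, 49.6% held CAGAC and 35.7% held GGGCGG on either strand. A match describes the letters and is not a bound site.

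Lamc1 encodes the gamma1 chain, the partner in nearly all laminins of the heart. It had 309 and 309 TPM with TGFbeta, against 380 and 386 TPM with vehicle. The groups did not overlap and replicates were close, yet the log2 change was -0.31 (SE 0.13), short of the threshold (limma adjusted p = 0.206). The 6 laminin chains summed to 1218 and 1133 TPM with TGFbeta, against 1521 and 1538 TPM with vehicle. Within this sum the beta chains were at 568 and 466 TPM with TGFbeta, against 700.0 and 723 TPM with vehicle. The alpha chains were at 341 and 358 TPM with TGFbeta, against 441 and 430 TPM with vehicle. In each library the beta chains outweighed both the summed alpha chains and Lamc1.

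Of the nidogens, Nid2 fell while the libraries of Nid1 overlapped. Nid1 and Nid2 encode related rod-like proteins with partly redundant roles, and mice that lack both die around birth. Nid2 had 48.6 and 43.3 TPM with TGFbeta, against 167 and 90.8 TPM with vehicle. The TGFbeta libraries were both lower than either vehicle library, and the vehicle libraries differed much from each other. The mean of Nid2 was 46.0 ± 3.69 TPM with TGFbeta and 129 ± 54.0 TPM with vehicle (SD, n = 2 each), 2.81-fold lower with TGFbeta. Its log2 change was -1.41 (SE 0.28, limma adjusted p = 0.0458), the largest in size among the members. The change was -0.97 without the first vehicle library and -1.84 without the second, and the Nid2 call was lost without any 1 library (limma adjusted p from 0.0933 to 0.152). For Nid2 the adjusted p in limma was 0.0602 with quantile-normalized values, 0.141 with no minimum level and 0.0732 without an intensity trend, none of them a call.

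Nid1 had 184 and 198 TPM with TGFbeta, against 235 and 167 TPM with vehicle. Both TGFbeta values lay between the vehicle values, and the log2 change was -0.05 (SE 0.19, limma adjusted p = 0.896). Nid2 stood at 26.4 and 21.9 TPM per 100 TPM of Nid1 with TGFbeta, against 71.1 and 54.3 with vehicle. It made up 20.9% and 17.9% of nidogen TPM with TGFbeta, against 41.6% and 35.2% with vehicle. The first vehicle library was the highest for both nidogens, and their ratio differed between groups by -1.37 on the log2 scale, with a pooled SD of 0.24.

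Perlecan and agrin carry heparan sulfate chains on large multidomain cores. Hspg2 had 1472 and 1172 TPM with TGFbeta, against 1321 and 1412 TPM with vehicle, and was the most abundant member in all 4 libraries. The TGFbeta values of Hspg2 lay on both sides of the vehicle values, and its log2 change was -0.06 (SE 0.18, limma adjusted p = 0.878). Its share of the TPM of all members was 49.4% and 45.1% with TGFbeta, against 39.9% and 42.9% with vehicle. The difference in this share was 5.85 percentage points, and 3.69 without the first TGFbeta library. Agrn, known for clustering acetylcholine receptors at the neuromuscular junction, had 55.6 and 52.5 TPM with TGFbeta, against 66.0 and 84.2 TPM with vehicle. Its libraries did not overlap, but the log2 change was -0.46 (SE 0.16), short of the threshold (limma adjusted p = 0.156). The Agrn value was -0.63 without the first vehicle library and -0.28 without the second. Agrn stood at 3.78 and 4.48 TPM per 100 TPM of Hspg2 with TGFbeta, against 4.99 and 5.96 with vehicle.

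Lama4 and Nid2 are also products of endothelial cells and pericytes, and in bulk RNA fewer cells of a type and less RNA per cell cannot be told apart. Summed over 10 genes, endothelial markers were at 67.5 and 63.3 TPM with TGFbeta, against 86.6 and 92.4 TPM with vehicle. Of the 9 tested, limma called 0. At an unadjusted p under 0.05 there were 0 higher and 4 lower, against 5.98% and 18.5% of all tested genes. Both TGFbeta libraries lay above both vehicle libraries for 0 of the 9 and below both for 6, against 15.5% and 39.8%. No endothelial marker was at 0 in all libraries. The most abundant were Egfl7, with 22.5 and 17.0 TPM under TGFbeta, against 34.0 and 34.3 TPM under vehicle (log2 change -0.78, limma adjusted p = 0.0599), and Tek, with 18.9 and 18.5 TPM under TGFbeta, against 19.3 and 18.5 TPM under vehicle. Egfl7 was called lower in 3 of 10 alternative fits that kept all libraries, and Tek was called in 0. Of the defining markers, Pecam1 had 5.93 and 6.07 TPM with TGFbeta, against 5.97 and 7.35 TPM with vehicle. Cdh5 had 4.17 and 4.45 TPM with TGFbeta, against 6.36 and 7.29 TPM with vehicle (log2 change -0.56, limma adjusted p = 0.140). The 10 markers of pericytes and smooth muscle summed to 369 and 323 TPM with TGFbeta, against 410 and 428 TPM with vehicle. Most of this sum was Smtn, with 284 and 236 TPM under TGFbeta, against 285 and 301 TPM under vehicle. Of 8 tested, limma called 1 higher and 2 lower, against 1.54% and 4.38% of all tested genes. Mcam rose by 0.98 (limma adjusted p = 0.0242), and Notch3 and Steap4 fell by 1.99 (limma adjusted p = 0.00633) and 2.28 (limma adjusted p = 0.0116). The change of Notch3 was -2.12 without the first TGFbeta library and -1.85 without the second. Summed cardiomyocyte markers were at 68.0 and 73.2 TPM with TGFbeta, against 87.2 and 131 TPM with vehicle. The largest part of them was Tnnt2, with 35.2 and 34.6 TPM under TGFbeta, against 47.0 and 81.4 TPM under vehicle. Of the 5 cardiomyocyte markers tested, limma called 0. For 0 of the 5 both TGFbeta libraries lay above both vehicle libraries, and for 3 below both, against 15.5% and 39.8%. Actn2 overlapped, with 15.5 and 18.2 TPM under TGFbeta, against 15.7 and 17.5 TPM under vehicle. Myh6 stayed at or below 0.394 TPM in every library. Summed macrophage markers were at 65.0 and 69.2 TPM with TGFbeta, against 78.9 and 97.7 TPM with vehicle. Their largest part was Lyz2, with 42.9 and 48.1 TPM under TGFbeta, against 55.2 and 66.4 TPM under vehicle. Of the 8 macrophage markers tested, limma called 0. For 1 of the 8 both TGFbeta libraries lay above both vehicle libraries, and for 3 below both, against 15.5% and 39.8%. The 1 above was C1qb (log2 change 0.36, limma adjusted p = 0.371). Ptprc overlapped, with 1.07 and 1.35 TPM under TGFbeta, against 1.35 and 1.05 TPM under vehicle. Summed Schwann cell markers were at 12.7 and 13.2 TPM with TGFbeta, against 14.0 and 15.9 TPM with vehicle. Summed mesothelial markers were at 12.1 and 12.5 TPM with TGFbeta, against 14.4 and 17.1 TPM with vehicle. Of the 4 Schwann cell and 3 mesothelial markers tested, limma called 0. The part of these cells in the changes of Lama4 and Nid2 was not tested.

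**Figure D2:**
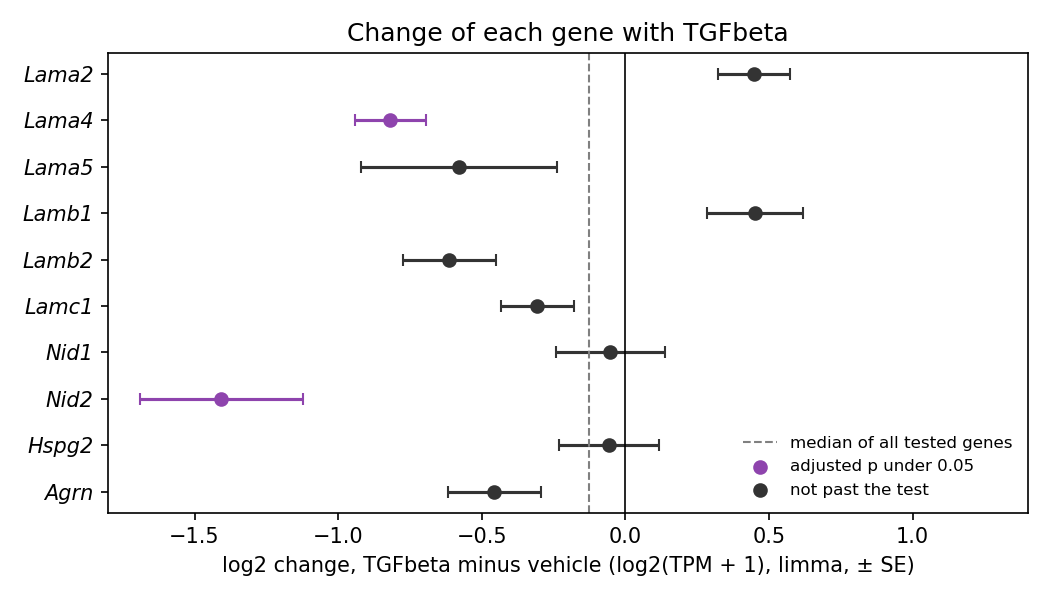
The plot shows the log2 change of each gene (TGFbeta minus vehicle, log2(TPM + 1)) with its SE from the limma fit; the dashed line is the median of all tested genes, -0.13. Nid2 at -1.41 and Lama4 at -0.82 are the genes past the test, and Lama2 and Lamb1 at 0.45 lie on the other side of 0 without passing.

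**Figure D3:**
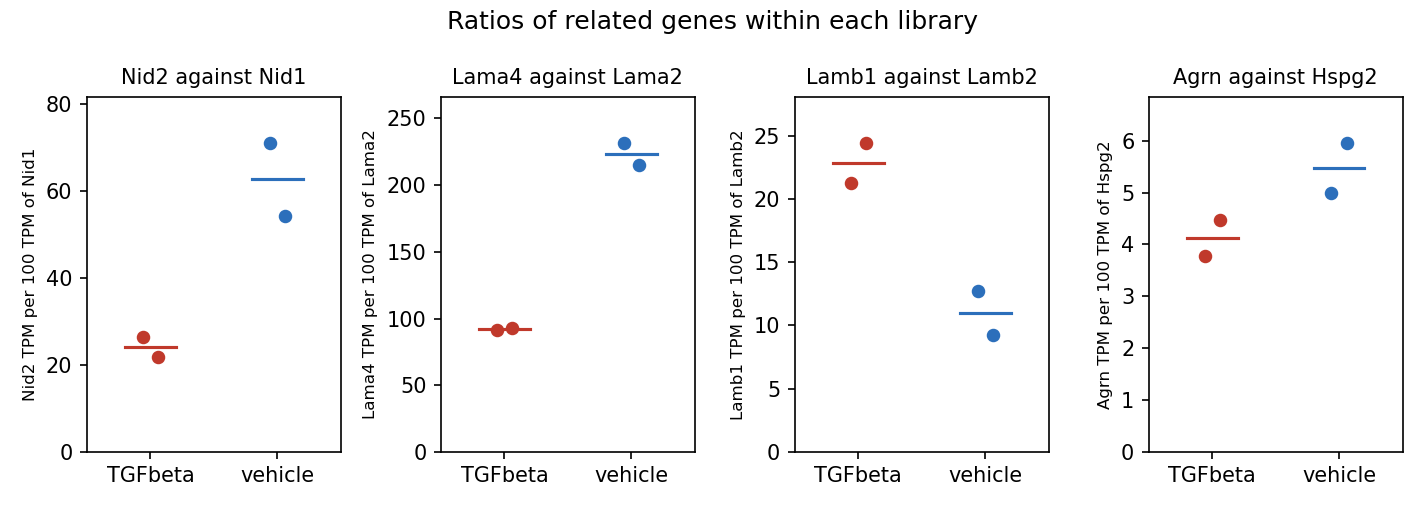
The panels show, for each library, TPM of a gene per 100 TPM of a related gene; points are libraries and bars are means of 2. No panel has overlapping groups, and Lama4 against Lama2 lies at 91.3 and 93.1 with TGFbeta, against 232 and 215 with vehicle.

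The study concerns HuR, which binds U-rich and AU-rich stretches, so the pentamer ATTTA was counted on the sense strand in the 3′ untranslated region of the transcript with the longest coding sequence (GENCODE M21, GRCm38). At least 1 ATTTA was found in 5 of the 10 members, against 65.2% of 13549 tested protein-coding genes with such a region. The median region of those genes had 957 bases, and their median was 1.2 ATTTA per kilobase. The shares are not matched for length, and several members have much shorter regions. The 9-letter form TTATTTATT was found in 0 members, against 7.31% of those genes. Nid2 has 2 pentamers in 591 bases, whereas Lama4 has 0 in 155 bases. Lamc1 has 6 in 2551 bases, Nid1 has 1 in 2202 bases, Lama5 has 1 in 174 bases and Lamb1 has 1 in 151 bases. None was found in Lama2 (210 bases), Lamb2 (110 bases), Hspg2 (965 bases) and Agrn (718 bases). The Nid2 and Nid1 sites are shown to compare the nidogens, and a Lamc1 site is shown as the window with the most A and T letters; capitals mark ATTTA.
Nid2 (chr14:19811447-19811475, plus strand): ttgtaaacagttATTTAaaaggccaaatt
Nid2 (chr14:19811640-19811668, plus strand): tcctcagactttATTTAtactaaggtgct
Nid1 (chr13:13511959-13511987, plus strand): taaataattggaATTTAaatcacaaagtt
Lamc1 (chr1:153220038-153220066, minus strand): taattatttgaaATTTAtattttttgtgt
These letters do not show binding, and the 2 members called lower differ in whether they hold the pentamer.

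Each member is a protein-coding gene on GRCm38 in GENCODE M21. Lama2 (chr10:26980036-27619758) and Lama4 (chr10:38965515-39110188) lie on chromosome 10, and Hspg2 (chr4:137468769-137570630) and Agrn (chr4:156165290-156197488) on chromosome 4. The others are Lama5 (chr2:180176373-180225859), Lamb1 (chr12:31265234-31329644), Lamb2 (chr9:108479736-108490530), Lamc1 (chr1:153218922-153332786), Nid1 (chr13:13437551-13512269) and Nid2 (chr14:19751265-19811787). Nid2 shares 437 bases, 8.45% of its exonic length, with exons of Rtraf on the opposite strand (chr14:19811351-19811787), and both of its ATTTA sites lie there. Rtraf, listed under an older symbol, had 76.0 and 103 TPM with TGFbeta, against 117 and 98.7 TPM with vehicle, and these overlapped. Its log2 change was -0.28 (SE 0.19, limma adjusted p = 0.423), and it was -0.06 without the first TGFbeta library and -0.49 without the second. Whether the counting used strand is not given, so the reads from the shared stretch cannot be told apart. Lama2 and Nid1 share 631 and 143 exonic bases with antisense genes that are not used here.

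Of 4 other laminin chains, 1 passed the filter on the mean level. It was Lamb3, which encodes the beta3 chain of an epithelial anchoring laminin, and it did not pass the test. Lamb3 had 58.1 and 72.8 TPM with TGFbeta, against 83.7 and 88.4 TPM with vehicle (log2 change -0.40, limma adjusted p = 0.188). For Lamb3 the value was -0.24 without the first TGFbeta library and -0.56 without the second. Lama3, the alpha chain of that trimer, was at 0.0686 and 1.61 TPM with TGFbeta, against 0.21 and 0.22 TPM with vehicle. Lama1, the alpha chain of embryonic laminin, was at 1.92 and 1.12 TPM with TGFbeta, against 0.241 and 0.0732 TPM with vehicle, and Lamc3 stayed at or below 0.261 TPM in all 4 libraries.

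Of 8 basement membrane collagens limma called 0 higher and 2 lower, against 1.54% and 4.38% of all tested genes. Both TGFbeta libraries lay above both vehicle libraries for 0 of the 8 and below both for 4, against 15.5% and 39.8%. Summed, the 8 were at 2350 and 1955 TPM with TGFbeta, against 2302 and 2127 TPM with vehicle, which overlapped. The most abundant, Col4a1, had 1266 and 1062 TPM with TGFbeta, against 1210 and 1136 TPM with vehicle (limma adjusted p = 0.965). Next came Col4a2, with 888 and 677 TPM under TGFbeta, against 826 and 728 TPM under vehicle (limma adjusted p = 0.998). Both had overlapping libraries. Col18a1, whose C-terminal fragment is endostatin, had 31.2 and 28.3 TPM with TGFbeta, against 57.7 and 71.3 TPM with vehicle (log2 change -1.08, limma adjusted p = 0.0232). Col4a6, which encodes a minor collagen IV chain, had 13.3 and 14.1 TPM with TGFbeta, against 23.7 and 23.1 TPM with vehicle (log2 change -0.73, limma adjusted p = 0.0470). Among 18 tested genes of other basement membrane proteins and linkers, limma called 0 higher and 3 lower, beside the same shares of all tested genes. Both TGFbeta libraries lay above both vehicle libraries for 3 of the 18 and below both for 10. The 2 most abundant, Sparc and Fbln2, were among the 3 above and were not called. Sparc had 6700 and 7120 TPM with TGFbeta, against 5888 and 5231 TPM with vehicle (limma adjusted p = 0.372). Fbln2 had 2430 and 2100 TPM with TGFbeta, against 1528 and 2011 TPM with vehicle (limma adjusted p = 0.325). All 22 listed genes summed to 9503 and 9690 TPM with TGFbeta, against 8176 and 8030 TPM with vehicle. The first of the 3 called lower was Fbln1, which encodes fibulin 1, a laminin and nidogen binding protein, at -1.14 (limma adjusted p = 0.0221). The others were Efemp1, which encodes fibulin 3, at -2.12 (limma adjusted p = 0.0316) and the matrilin gene Matn2 at -0.86 (limma adjusted p = 0.0424). The median log2 changes were -0.23 for the collagens and -0.37 for the other proteins, against -0.13 for all tested genes.

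Of 17 tested receptor genes limma called 1 higher and 0 lower, against 1.54% and 4.38% of all tested genes. At an unadjusted p under 0.05 there were 1 higher and 5 lower, against 5.98% and 18.5%. Both TGFbeta libraries lay above both vehicle libraries for 3 of the 17 and below both for 8, against 15.5% and 39.8%. The called receptor gene was Itga3, the alpha subunit of a laminin-binding integrin. Itga3 had 38.5 and 30.5 TPM with TGFbeta, against 18.2 and 18.8 TPM with vehicle (log2 change 0.86, limma adjusted p = 0.0431). Dag1, which encodes dystroglycan, the receptor of laminin, perlecan and agrin, had 148 and 133 TPM with TGFbeta, against 131 and 129 TPM with vehicle (log2 change 0.11, limma adjusted p = 0.660). None of 12 genes that glycosylate dystroglycan was called by limma, with 0 at an unadjusted p under 0.05, against 24.5% of all tested genes. The most abundant of these, Pomgnt1, lay at -0.04 on the log2 scale. The next, Rxylt1, which adds a ribitol-linked xylose to dystroglycan and is listed as Tmem5, had 52.5 and 72.2 TPM with TGFbeta, against 49.8 and 40.4 TPM with vehicle. Both TGFbeta libraries of Tmem5 were higher, and its log2 change of 0.45 did not pass (limma adjusted p = 0.236). That value ranged from 0.22 without the second TGFbeta library to 0.67 without the first. Of 15 tested enzymes that cut or trim the members, limma called 0, with 5 at an unadjusted p under 0.05 (24.5% of all tested genes). The most abundant, the proteases Mmp3 at -0.43 (limma adjusted p = 0.218) and Ctsl at 0.41 (limma adjusted p = 0.229), lay on opposite sides of 0. With 1 library left out, Mmp3 lay between -0.61 (without the second vehicle library) and -0.25 (without the first), and Ctsl between 0.21 (without the second TGFbeta library) and 0.61 (without the first).

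Limma called no gene when 1 vehicle library was left out, whichever it was, so every call named here was lost there. Of the called basement membrane and receptor genes outside the members, Efemp1 stayed called without each TGFbeta library, at -1.53 without the first and -2.71 without the second. Fbln1 stayed called without the first, and Col18a1, Col4a6, Matn2 and Itga3 were lost when either TGFbeta library was left out. Of 10 alternatives that kept all libraries, Col18a1 and Fbln1 were called in 9, Efemp1 and Itga3 in 7, and Col4a6 and Matn2 in 5. The called cell type markers Notch3, Steap4, Pdgfra, Tcf21 and Mcam were each called in 9 of these 10.

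**Figure D4:**
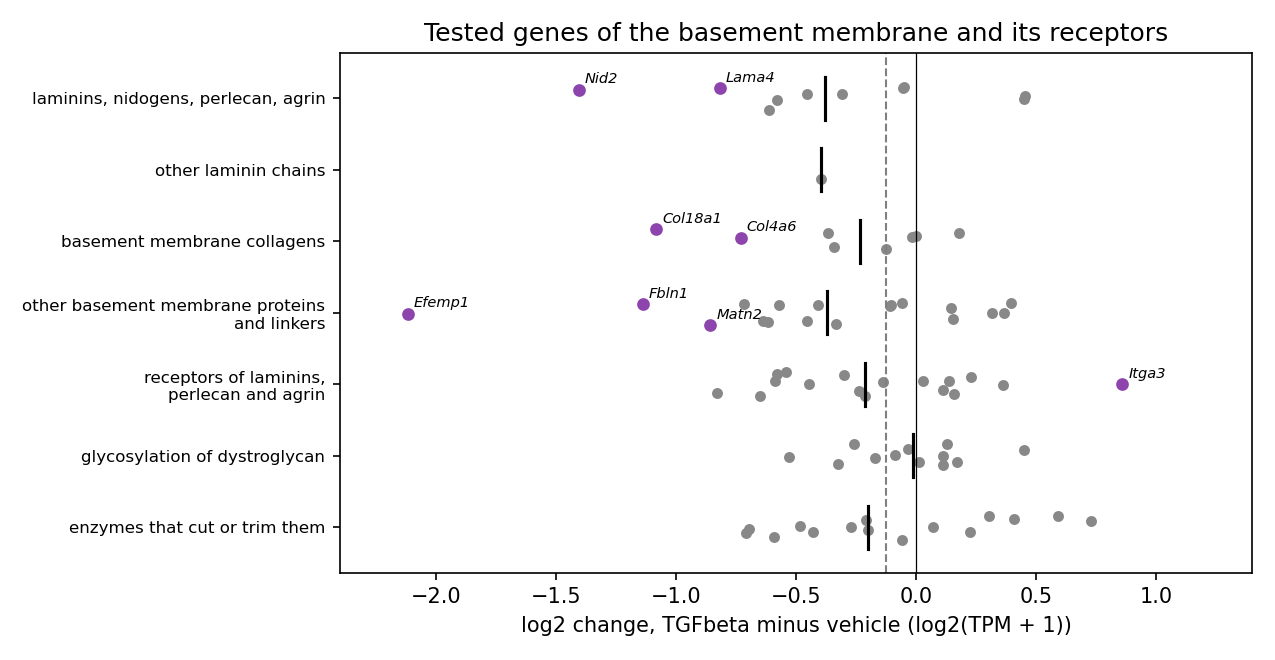
The plot shows the log2 change (TGFbeta minus vehicle) of each tested gene by list; called genes are purple and named, black bars are list medians, and the dashed line is the median of all tested genes. The members span -1.41 to 0.45, and Itga3 is the gene called higher among those plotted.

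The genes with the profile most like Lama4, by Euclidean distance of centred log2(TPM + 1) over 4 libraries, were Rtn2 (distance 0.00593), Ccdc189 (0.0279) and Syp (0.0316). As many as 226 protein-coding genes lay within 0.2 of Lama4. For Nid2 the nearest were Rasgrp2 (0.224), Fzd4 (0.267) and Hist1h4m (0.273), and 0 lay within 0.2. With 4 points from the same libraries this likeness is only a description.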

How the data were processed

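RNA from 4 libraries was measured by sequencing (TruSeq RNA kit, per the labels' protocols). Per the file headers, the authors deposited TPM, 1 value per gene symbol and library, which summed to 1000000 in each. For the deposited values, the sources used here name no aligner, quantifier, build or annotation. Of 33641 symbols, 32159 matched GENCODE M21 directly and 283 through a RefSeq synonym.

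Levels were compared as log2(TPM + 1) for 15815 genes that averaged 1 TPM or more, by limma 3.58.1 in R 4.3.3 (lmFit, eBayes, trend on), as two-sided tests with Benjamini-Hochberg adjustment over all tested genes and calls at an adjusted p under 0.05. Log2 changes are TGFbeta minus vehicle. They understate the change of low genes. Shares and ratios used TPM without a pseudocount. The code was tested on simulated data. Named from each pathway list were its called genes or, with none, the 2 most abundant, and from the marker lists the called genes; likeness was ranked by profile distance. Beyond this rule, Lamb3, Lama3, Lama1, Lamc3, Dag1, Rtraf, Egfl7, Tek, Pecam1, Cdh5, Col1a1 and Col3a1 were named after their values were seen. So were Col4a1, Col4a2, Sparc, Fbln2, Actn2, Myh6, Ptprc and C1qb. So were Smtn, Tnnt2 and Lyz2, each the most abundant gene of its marker list. A few genes of these pathways were left out of the lists and are not reported here. Members and lists were chosen with earlier results of these data known. Alternatives were 2 other pseudocounts, 2 other filters, 2 scalings, 2 eBayes forms, protein-coding genes without those identical in all 4 values to another gene, the replicate number as a block, and each library left out in turn.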

Additional observations from a re-analysis of the deposited data

How the results depend on the processing

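Limma called 936 genes (244 higher, 692 lower). It called 0 when every gene above 0 was tested (with 0 members called), and between 0 and 203 with 1 library left out (0 to 65 higher, 0 to 138 lower, 0 members). The split was 421 higher and 401 lower after median scaling, 333 and 401 after quantile normalization, 602 in all and 437 lower without an intensity trend, and 1730 in all (432 higher, 1298 lower) with protein-coding genes whose 4 values equal no other gene's. Median scaling raised every member's log2 change by 0.15. Of the members 1 was called after quantile normalization, where Nid2 was lost (limma adjusted p = 0.0602), and 0 without a trend, where Lama4 had 0.0516 and Nid2 0.0732. With the replicate block 445 genes were called lower and 1 member, since Lama4 was lost (limma adjusted p = 0.0504). The numbers share no stated source, and deviations of same-numbered libraries correlated at -0.0539 across genes. The member median of -0.38 lay between -0.39 and -0.23 under all settings.

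Signs turned for Nid1 (0.000306 after quantile normalization, 0.10 after median scaling, and -0.30 to 0.19 with 1 library left out), Hspg2 (0.0978 after median scaling, and -0.22 to 0.11 with 1 left out), Pomgnt1 (0.0725 and 0.12 after the same scalings, and -0.0808 to 0.0105 with 1 left out) and Tek (0.13 and 0.14, and -0.0462 to 0.0172). The share of Lama5 among alpha chains differed by -1.33 percentage points (TGFbeta minus vehicle), and by -4.55 to 1.89 with 1 library left out. With 1 TGFbeta library left out, the difference in the log2 ratio of Lama5 over Lama2 went from -1.05 to -0.47 (without the first) or -1.63 (without the second), and that in the Hspg2 share from 5.85 percentage points to 3.69 or 8.01. The other ratios and shares kept their sign and moved by less than 1.5 times in the settings run. The causes were not tested. Depth is unknown, so the counting error of scarce genes such as Lama3 is unknown too.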
